A study of Mus musculus and Rattus norvegicus with 30 samples.

Results

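This account compares sham-operated dorsal root ganglia (DRG) of mouse and rat, gene by gene. DRG lie beside the spinal cord and hold the cell bodies of sensory neurons, each wrapped by satellite glial cells, with axons ensheathed by Schwann cells. The neurons fall into classes for touch, body position, temperature, itch and pain, which are told apart by their channels, receptors, neuropeptides and transcription factors. Macrophages, fibroblasts, endothelial cells, blood and, at dissection, neighbouring nerve, muscle or fat also give RNA to a whole-ganglion library.

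The members were the 11 mouse sham libraries, 6 of BALB/c and 5 of B10.D2, and the 4 rat sham libraries, 15 of the 28 libraries with a column of counts. Genes were paired by having the same symbol in both species, with case ignored and 1 row kept per symbol. Of 15918 symbols found in both tables, 9494 had at least 1 count over the rat sham libraries and form the shared set. The other 6424 were listed at 0 in all of those libraries. The choice used the measured values for that minimum and, for symbols with several rows, to keep the row with the highest total count.

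Mouse sham surgery exposed the nerve branches that spared nerve injury (SNI) cuts and left them undamaged, and rat sham surgery exposed the spinal nerve without ligation. Each mouse library came from 1 adult animal, 6 of them male and 5 female, with L3 and L4 ganglia taken 28 days after surgery. Each rat library pooled L5 ganglia of 3 male Wistar rats taken at 21 days. Mouse RNA was depleted of ribosomal RNA and read on a HiSeq4000, whereas rat RNA was selected for poly(A) tails and read on a HiSeq2000. The animals were also operated on at different institutions, and each species had its own genome and gene models. Species cannot be told apart from any of these, so every difference below is between the 2 sets of libraries. No label ties a library to a culture or cage, and p-values measure the spread between these libraries. In bulk RNA, fewer cells of a type and less RNA per cell cannot be told apart.

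Mouse libraries held 17.3 to 22.0 M counts (M, mega) in the shared set, 51.4% to 52.7% of all their counts. Rat libraries 1 to 4 held 9.74, 15.1, 11.8 and 12.9 M, or 81.4%, 85.9%, 83.8% and 84.2% of their counts. The rule keeps symbols with a rat count and so bears on these shares, which are given with no test. Levels are given as counts per M counts of the shared set (CPM), and ranks as percentiles of CPM within a library, where 100 is the highest. Both carry gene length, so they are compared between species for 1 gene and not between genes. In mouse, each gene has its lowest, median and highest CPM of 11 libraries. In rat, the values of libraries 1 to 4 are given in order.

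The shared set left out much of the genome. Of symbols on mouse chromosomes 8, 11, 14, 16 and 18, 0.153% to 0.735% had a rat count, against 86.9% to 97.2% on chromosomes 2, 3, 4, 6, 7, 9, 12, 15, 19 and X. The shares were 15.7% on chromosome 5, 38.95% on 13, 45.5% on 1, 54.4% on 17 and 66.8% on 10. At the edge of the rule, 171 genes had exactly 1 rat count and a median mouse level of 0.0121 counts per M counts of the whole library. The symbols at 0 in rat had a median mouse level of 13.5 on that scale, and 3490 of them (54.3%) reached at least 10. They include genes that define the tissue: the neurofilament light chain gene Nefl had a mouse median of 4734 on that scale and the neuronal tubulin Tubb3 2200. Their cause was not tested, and no statement is made here on rat levels of these genes.

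Levels of the shared genes were ranked alike in both species. Spearman's correlation of ranks over 9494 genes was 0.871 to 0.895 for the 44 pairs of a mouse and a rat library, with a median of 0.885. It was 0.989 to 0.997 within BALB/c, 0.995 to 0.997 within B10.D2, 0.986 to 0.993 between the strains and 0.982 to 0.994 within rat. The pairs share library protocol within a species and gene length throughout, and genes are not replicates. Rat library 4 had the lowest correlations with mouse, 0.871 to 0.876. It also stood apart from the other rats in the summed level of injury-induced genes, which was 1159, 1162, 1205 and 2756 CPM in rat libraries 1 to 4 and 1081 to 1508 CPM in mouse. Counts and differences that it moved by over 1.5 times are also given without it. Among the 6164 genes with at least 10 CPM in both species the median between species was 0.798.

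**Figure D1:**
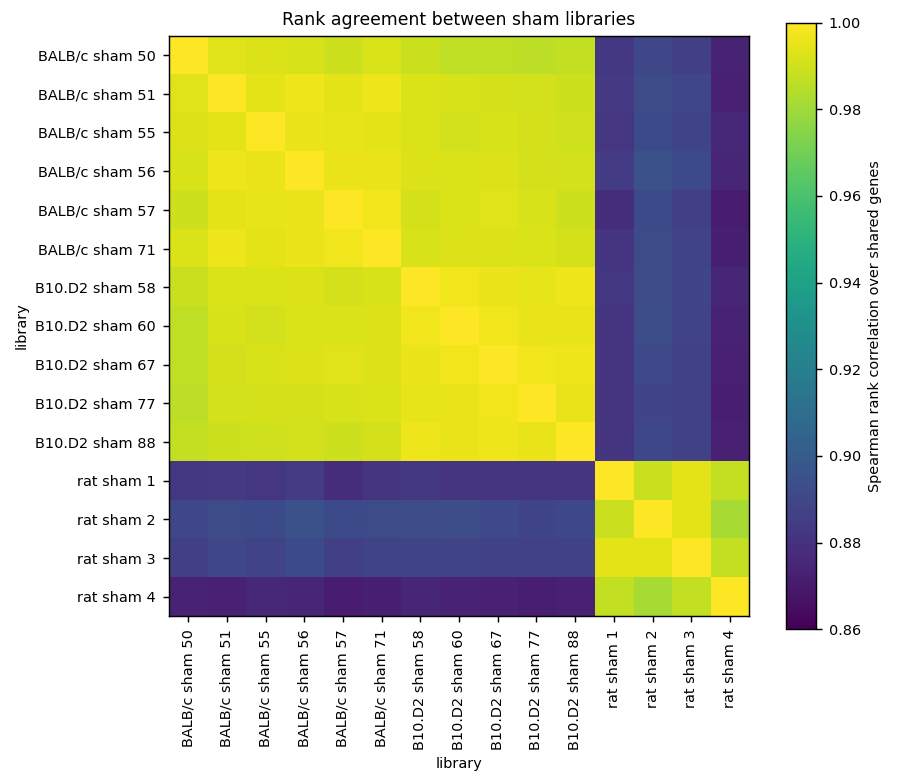
Spearman rank correlation over 9494 shared genes for each pair of the 15 sham libraries, on a colour scale from 0.86 to 1. Both mouse strains form 1 block above 0.98, rat libraries form another, and the pairs between species lie between 0.871 and 0.895.

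Of the 100 genes with the highest mean rank in each species, 62 were the same, and 5 of the 10 highest. Among these were the microtubule-associated protein gene Map1b, the cytoskeletal linker Dst, the scaffold protein gene Ahnak and the alpha spectrin Sptan1. Sptan1 was at 5154, 5428 and 5775 CPM in mouse and 5706, 7026, 7195 and 6378 CPM in rat. The peripherin gene Prph, an intermediate filament of small sensory neurons, was at 2189, 2477 and 2789 CPM in mouse and 4398, 5464, 5539.9 and 5398 CPM in rat, higher in every rat library (log2 rat over mouse 1.05, SE 0.07). Apoe, the lipid carrier made by satellite glia, was at 2548, 2938 and 3417 CPM and 9498, 8645, 9229 and 14049 CPM, also without overlap and highest in rat library 4. Cytoplasmic actin Actg1 was at 986, 1119 and 1239 CPM and 4677, 5759, 5281 and 6179.9 CPM, which is 2.27 on the log2 scale (SE 0.07, edgeR adjusted p = 1.26e-14). The 10 highest genes of each library held 6.75% ± 0.216 (SD, n = 11) of shared counts in mouse and 6.98% ± 0.512 (SD, n = 4) in rat (two-sided exact permutation test over 1365 splits, adjusted p = 0.287 over 5 measures that include the share above, and 0.00343 without rat library 1). The 100 highest held 22.1% ± 0.346 (SD, n = 11) and 22.9% ± 0.863 (SD, n = 4) (exact permutation test, adjusted p = 0.0366, and 0.0440 when the share above is left out of the adjustment). Leaving out rat library 2 brought that adjusted p to 0.155, without rat library 3 it was 0.133, without rat library 4 0.0549, and without any one of BALB/c libraries 50, 51 and 55 it was 0.0533. The number of genes at 1 CPM or more was 8036 ± 46.3 (SD, n = 11) in mouse and 8067 ± 48.2 (SD, n = 4) in rat (exact permutation test, adjusted p = 0.298).

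Against that background of like ranks, the fit to counts (edgeR quasi-likelihood test, the mean of both strains against rat) found 7086 of 8666 genes tested (81.8%) at an adjusted p under 0.05. Of those 7086 genes, 3131 differed at least 2-fold. Of all 8666 genes tested, whatever their p, 5515 (63.6%) lay within 2-fold. The median absolute log2 difference was 0.69 between species and 0.11 between the strains. A gene is called here when it also differed at least 4-fold. There were 1217 called genes, 14% of those tested, with 567 higher in rat (6.54%) and 650 higher in mouse (7.50%). At 16-fold or more there were 388, 169 higher in rat and 219 higher in mouse. The shared set needs a rat count but no mouse count, so these counts by direction do not weigh the species evenly. Between B10.D2 and BALB/c the same rule called 79 genes (0.912%). Percentile ranks of the mouse and rat libraries did not overlap for 5462 of all 9494 genes (57.5%), and the median absolute difference of mean rank was 6.09 points.

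**Figure D2:**
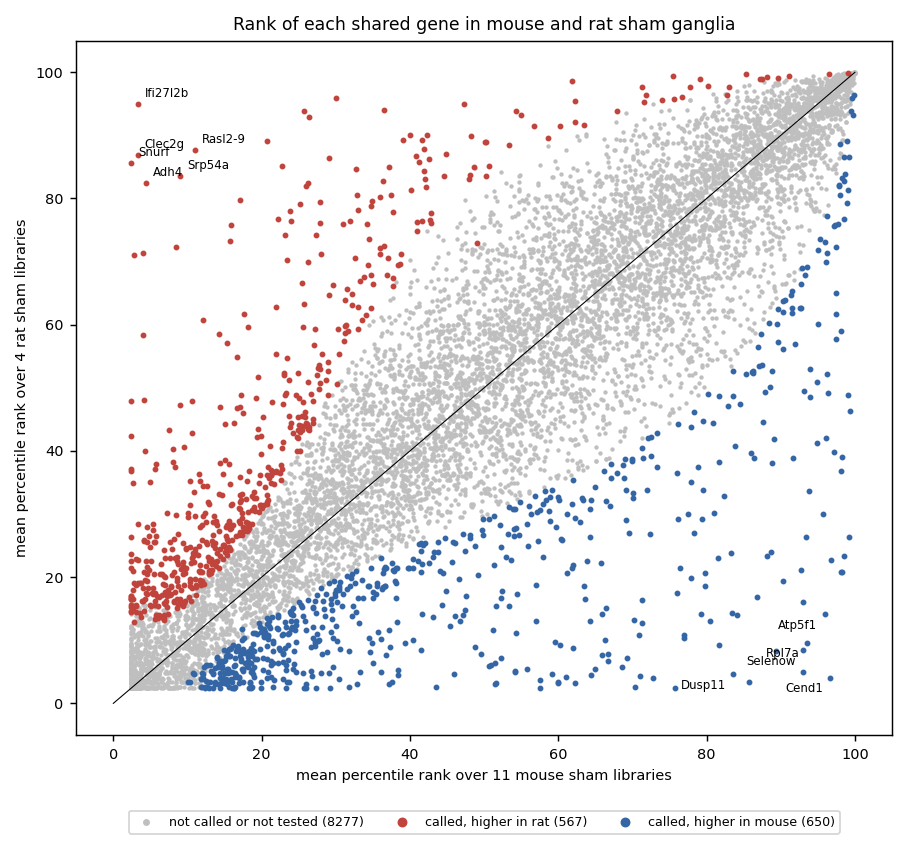
Mean percentile rank of each of the 9494 shared genes over 11 mouse sham libraries (horizontal axis) and 4 rat sham libraries (vertical axis), with genes called higher in rat in red (567) and in mouse in blue (650). Most genes lie along the line of equal rank, and the named genes at the top left and bottom right, such as Ifi27l2b and Cend1, lie farthest from it.

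Called genes were often low in 1 species. Among the 6164 genes with at least 10 CPM in both, 252 (4.09%) were called, 109 higher in rat and 143 higher in mouse. A level of at least 10 CPM in mouse and under 1 CPM in rat was found for 88 genes, and the reverse for 45. The 88 leave out symbols at 0 in all rat sham libraries, which are outside the shared set. Of these, 3490 reached at least 10 counts per M counts of the whole library in mouse. The 45 could include any of the 139 shared genes with no mouse count. The counts of 88 and 45 therefore do not show which direction is more common. The injured libraries, 9 mouse SNI libraries and 4 of rat spinal nerve transection (SNT), are separate animals given other surgery. There 1497 of 8700 genes were called (17.2%). Of the genes called in sham ganglia, 988 (81.2%) were called the same way in injured ganglia and 0 the other way, and the shared calls were 66% of those in injured ganglia. The same confounds apply to both comparisons.

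Among the genes that lay farthest apart in rank and higher in mouse, some had only a few counts in rat. Cend1, a neuronal protein of cell cycle exit (chromosome 7, 141426446 to 141429491, mm10), was at 445, 500.5 and 535 CPM in mouse and had 3 counts over the rat libraries. The ratio of mouse to rat was 8165 with an exact 95% counting interval of 2794 to 39592. Chid1, a secreted chitinase-domain protein, was at 98.8, 108 and 123 CPM in mouse with 1 count in rat, a ratio of 5372 (interval 964 to 212185). Intervals and floors cover counting error alone.

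Housekeeping genes stood among them. No rat gene models were examined, so their low rat counts do not show that rat ganglia lack these transcripts, and the cause was not tested. The neuronal glycolytic enzyme enolase Eno2 was at 1023, 1290.0 and 1371 CPM in mouse and 5.14, 8.73, 5.75 and 4.74 CPM in rat, and its glycolytic partner Tpi1, triosephosphate isomerase, was at 747, 834 and 929.7 and 5.65, 3.44, 3.72 and 3.58 CPM. Atp5f1, a subunit of mitochondrial ATP synthase, was at 397, 431 and 464 and 1.13, 0.727, 0.762 and 0.700 CPM. The ribosomal protein gene Rpl7a was at 292, 337 and 373 and 0.308, 0.727, 0.0846 and 0.311 CPM, and Rps6 at 132, 144 and 157 and 0.514, 0.331, 0.338 and 0.0777 CPM. No mouse library of these genes came near a rat one. Log2 rat over mouse was -7.64 for Eno2 (SE 0.15), -7.75 for Tpi1 (SE 0.12), -9.09 for Atp5f1 (SE 0.10), -9.76 for Rpl7a (SE 0.18) and -8.89 for Rps6 (SE 0.14). Without rat library 2 the value for Rpl7a was -10.48. The selenoprotein gene Selenow differed by -10.32 (SE 0.12), the RNA phosphatase gene Dusp11 by -10.86 (SE 0.18) and M6pr, a receptor that sorts lysosomal enzymes, by -6.91 (SE 0.08). Col1a2, a chain of type I collagen, was at 655, 688 and 1026 CPM in mouse and 4.62, 3.77, 0.931 and 3.03 CPM in rat, a difference of -7.95 (SE 0.23).

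Of the genes farthest apart and higher in rat, some had few or no counts in mouse and others were at a few CPM. Ifi27l2b, of a family induced by interferon, was at 577, 351, 412 and 288 CPM in rat and had 3 counts over 11 mouse libraries, a ratio of 27800 (exact 95% counting interval 9511 to 134814). Clec2g, a C-type lectin, was at 232.4, 154, 171 and 211 CPM in rat and at most 0.104 CPM in mouse. Adh4, an alcohol dehydrogenase, was at 167, 132, 144 and 137 CPM in rat and at most 0.257 CPM in mouse. Sptlc3, a subunit of the enzyme that starts sphingolipid synthesis, was at 111, 95.5, 95.3 and 57.2 CPM in rat and at most 0.182 CPM in mouse. Gsta1, a glutathione transferase, was at 121, 75.3, 92.9 and 81.4 CPM in rat and at most 0.375 CPM in mouse. None of these overlapped between species. Chek1, a DNA damage checkpoint kinase, was at 4.20, 6.22 and 7.73 CPM in mouse and 307, 278, 319 and 303 CPM in rat (log2 5.59, SE 0.10). Srp54a and the Ran-like Rasl2-9 were at 179, 131, 153 and 156 and 189.8, 192, 197 and 218 CPM in rat against at most 0.578 and 0.618 CPM in mouse. Clec2g, Ifi27l2b, Gsta1, Srp54a and Rasl2-9 belong to families with close copies, so their counts are uncertain where reads map to several copies. Each of the named genes of both directions was called the same way in injured ganglia.

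Several of these genes share exons with a neighbour in the mouse annotation. A read pair that lies within shared bases may not be given to 1 gene, and how such pairs were counted was not tested. Snurf (chromosome 7, 59995449 to 60005049) shared 100% of its exonic bases on its strand, was at 0 in every mouse library and was at 166, 205, 179 and 154 CPM in rat. Against a floor of 3 counts per library, up to 0.173 CPM in mouse, rat was at least 1016-fold higher. Fam89b (chromosome 19, 5728087 to 5729653) shared 99.1% and was at 1.75, 2.64 and 3.97 CPM in mouse and 219, 243, 227 and 203 CPM in rat. Ube2v1 (chromosome 2, 167607638 to 167632095), a ubiquitin-conjugating enzyme variant, shared 61.5% and was at 4.50, 5.50 and 6.53 and 305, 397, 332 and 319.8 CPM. Over all genes tested, those with under 1% of exonic bases shared were called higher in rat in 6.03% of cases. The share was 48.4% for 62 genes with 50% to 90% shared, and 20 of 22 genes above that were called higher in rat. Symbols with more than 1 rat row were called higher in mouse in 75% of 68 cases, and summing the rows left the count of calls at 1217. The differences also moved with exon length. The median log2 difference was 0.39 in the fifth of genes with the fewest mouse exonic bases and -0.35 in the fifth with the most, with 22.2% and 9.17% called.

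**Figure D3:**
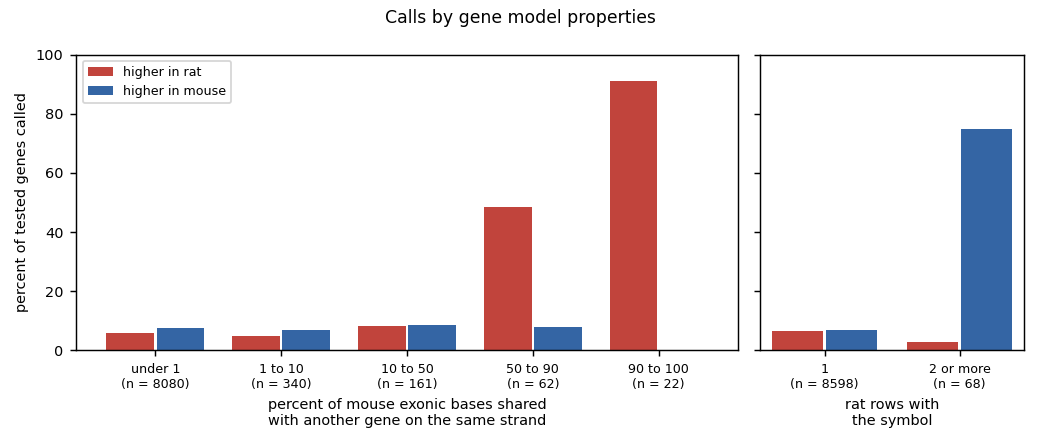
Percent of tested genes called higher in rat (red) and in mouse (blue), by the share of mouse exonic bases that lie in another gene on the same strand (left) and by the number of rat rows with the symbol (right). Calls higher in rat reach 48.4% and 90.9% in the 2 bins with most shared bases, and calls higher in mouse reach 75% where a symbol has 2 or more rat rows.

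The lists of neuronal genes are given by role, each with its counts of called members. Over all genes tested the median log2 difference was 0.01, with 6.54% called higher in rat and 7.50% higher in mouse. Of 11 neurofilament and axonal cytoskeleton genes tested, 0 were called and the median log2 difference was 0.01, although Nefl, Nefm, Nefh and Tubb3 were outside the shared set. Map1a, a microtubule-associated protein gene, was at 1381, 2139 and 3016 CPM in mouse and 1990.5, 2742, 2252 and 1517 CPM in rat, and the species overlapped. Among 10 transcription factors of sensory neurons 2 were called. Klf7, which many pain neurons need to form, was at 551, 576 and 677 CPM in mouse and 84.9, 97.7, 93.3 and 89.02 CPM in rat, with no overlap (log2 -2.74, SE 0.08, edgeR adjusted p = 7.95e-15). Etv1, a factor of proprioceptive neurons, went the other way, at 76.6, 109 and 126 and 495, 494, 468 and 315 CPM, again with no overlap (log2 2.0, SE 0.11, edgeR adjusted p = 1.67e-11). Etv1 sat at the 4-fold limit, and its call was lost without any one of rat libraries 1, 2 and 3, BALB/c libraries 55 and 57 and B10.D2 library 88. Zeb2 and Shox2 overlapped between species, with log2 differences of 0.08 (SE 0.10) and -0.03 (SE 0.14).

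The list drawn up for touch and proprioceptive neurons held 1 gene called higher in rat, Etv1, and 4 higher in mouse, of 16 tested. Another 9 of its 26 genes, Piezo2 among them, were at 0 in all rat sham libraries. Whether each listed gene is confined to those neurons was not tested. Th, tyrosine hydroxylase, marks low-threshold C fibres in mouse (chromosome 7, 142892752 to 142931128). Th was at 53.0, 94.4 and 161 CPM in mouse and 1.03, 1.26, 2.12 and 0.933 CPM in rat, and the lowest mouse library was far above the highest rat one (log2 -6.18, SE 0.24, edgeR adjusted p = 3.68e-13). The strains differed too, with 53.0 to 94.4 CPM in BALB/c and 111 to 161 CPM in B10.D2. Plxnc1, a semaphorin receptor, was at 621, 715 and 805 CPM in mouse and 51.1, 51.7, 47.4 and 58.5 CPM in rat (log2 -3.81, SE 0.09). Calb1, a calcium-buffering protein gene, was at 36.7, 48.3 and 105 and 6.47, 5.75, 5.92 and 19.1 CPM (log2 -2.80, SE 0.25), highest in rat library 4 among the rats, without which its difference was -3.42. Both were free of overlap. Ntrk3, the neurotrophin-3 receptor that large neurons need, is a growth factor receptor, and of 21 such genes 2 were called, both higher in mouse. Ntrk3 was at 842, 1110.3 and 1263 CPM in mouse and 158, 143, 144 and 112 CPM in rat (log2 -3.03, SE 0.11). Il31ra, an itch cytokine receptor, overlapped at 60.3, 69.9 and 99.9 and 80.0, 93.9, 62.6 and 55.6 CPM.

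**Figure D4:**
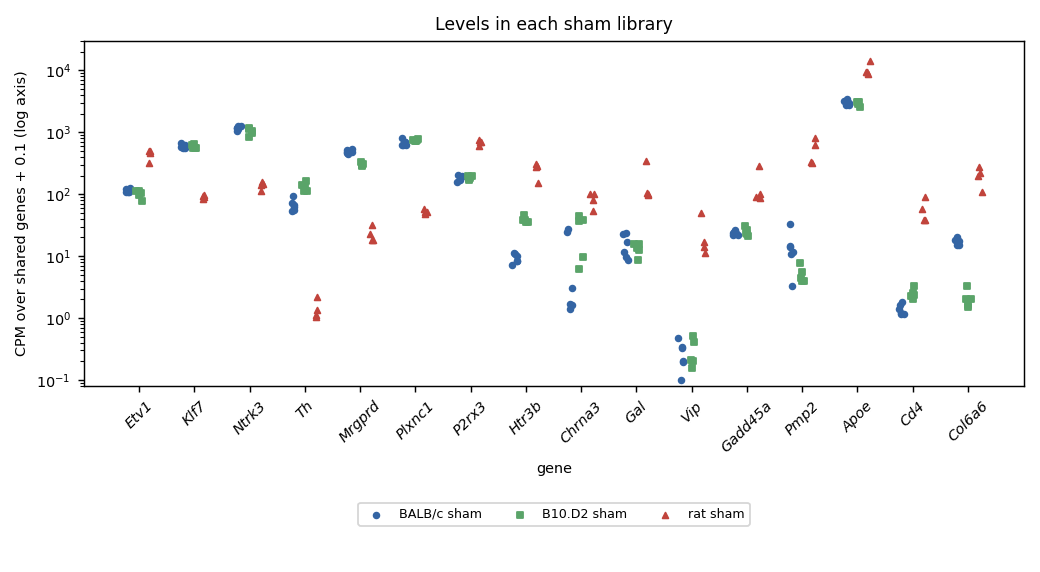
CPM over shared genes plus 0.1, on a log axis, of 16 genes in the 6 BALB/c, 5 B10.D2 and 4 rat sham libraries, 1 point per library. Klf7, Ntrk3, Th, Mrgprd and Plxnc1 lie lower in every rat library, Etv1, P2rx3, Htr3b, Pmp2, Apoe, Cd4 and Col6a6 lie higher, and rat library 4 stands above the other rat libraries for Gal, Vip and Gadd45a.

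Receptors for pain and itch signals were called in both directions. Of 57 G protein-coupled receptors tested, 5 were called higher in rat and 9 higher in mouse, with a median log2 difference of -0.49. Without rat library 4 the counts were 3 and 9. Mrgprd, which marks nonpeptidergic nociceptors of the skin (chromosome 7, 145314835 to 145324086), was at 283, 449 and 527 CPM in mouse and 17.9, 31.2, 22.5 and 18.0 CPM in rat. The groups did not overlap (log2 -4.13, SE 0.14, edgeR adjusted p = 7.73e-14), and B10.D2, at 283 to 334 CPM, lay below BALB/c, at 449 to 527 CPM. Mrgprb5, of the same receptor family, was at 37.2, 51.5 and 62.2 and 3.39, 1.52, 2.37 and 1.09 CPM (log2 -4.64, SE 0.19). The lysophosphatidic acid receptor Lpar3 and the prostaglandin E receptor Ptger3 were lower in every rat library, with log2 differences of -2.77 (SE 0.12) and -2.81 (SE 0.07). Ptgir, the prostacyclin receptor, overlapped at 81.2, 109 and 172 and 87.8, 128, 106 and 108 CPM. Of 8 purinergic receptors 1 was called, P2ry4, which was at 1.54, 0.727, 1.69 and 1.40 CPM in rat and at most 0.169 CPM in mouse. P2rx3, the ATP-gated channel of nociceptors, was at 159, 179 and 202 CPM in mouse and 694, 759.9, 685 and 607 CPM in rat without overlap, but its log2 difference of 1.87 (SE 0.07) was under 4-fold.

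Ion channel subunits were called in both directions. Of 57 potassium channel subunits, 6 were called higher in rat and 8 higher in mouse, with a median of -0.28. The silent subunit Kcng3 was at 58.2, 65.97 and 80.2 CPM in mouse and 6.06, 5.68, 8.46 and 4.51 CPM in rat. Kcnc1, a fast-closing channel of rapidly firing neurons, was at 37.7, 71.01 and 81.4 and 14.5, 16.6, 9.48 and 6.76 CPM, and Kcnq3, of the M current, at 133, 163 and 184 and 34.2, 43.6, 43.7 and 37.0 CPM. All were lower in every rat library, with log2 differences of -3.46 (SE 0.14), -2.48 (SE 0.25) and -2.05 (SE 0.10). Kcnip2, an accessory subunit of A-type channels, was at 157, 219 and 241 and 1.54, 1.39, 1.27 and 1.40 CPM, but its symbol has 2 rat rows. Kcnk10 and Kcna4 overlapped between species, at -0.03 (SE 0.10) and -0.08 (SE 0.11) on the log2 scale. The sodium channel gene Scn9a, which sets pain thresholds, overlapped at 1255, 1520.0 and 1649 and 1144, 1217, 1326 and 917 CPM.

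Of 18 genes tested from the list of TRP, Piezo and acid-sensing channels, 3 were called higher in rat and 2 higher in mouse. Another 11 of the 30 listed genes were at 0 in all rat sham libraries and outside the shared set. Piezo1, Piezo2 and Trpv1 were among them, so no Piezo channel was compared. Trpa1, the irritant receptor, overlapped at 109, 145 and 191 CPM in mouse and 153, 166, 179.9 and 109 CPM in rat (log2 0.05, SE 0.11). Trpc4 was at 9.16, 12.4 and 17.8 and 2.67, 2.51, 2.54 and 1.32 CPM (log2 -2.54, SE 0.20), lower in every rat library. Tmc2, a mechanotransduction channel of hair cells, was higher in each rat library, at 7.19, 7.47, 5.75 and 2.72 CPM against 0.168, 0.520 and 1.80 CPM in mouse. Trpc2 was also called higher in rat, but all of its mouse exonic bases are shared with another gene. Of 10 calcium channel subunits the 1 called was Cacng3, which regulates AMPA receptors, at 0.393, 0.822 and 1.34 CPM in mouse and 9.14, 14.1, 12.9 and 13.7 CPM in rat (log2 3.91, SE 0.19).

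Transmitter receptors gave 5 genes called higher in rat and 3 higher in mouse of 33 tested, the latter 5 without rat library 3. Htr3b, a subunit of the serotonin-gated channel, was at 312, 271, 290.1 and 151 CPM in rat, 7.07 to 11.2 CPM in BALB/c and 34.9 to 45.3 CPM in B10.D2. The 3 groups did not overlap (rat over the mean of the strains, log2 3.72, SE 0.14, edgeR adjusted p = 2.34e-13). The nicotinic subunit gene Chrna5 was at 15.5, 14.8, 13.8 and 11.8 CPM in rat and 0.273, 0.504 and 1.03 CPM in mouse (log2 4.64, SE 0.25). Its neighbour Chrna3 was at 79.0, 102, 99.8 and 52.9 CPM in rat and spread from 1.29 to 27.7 CPM in BALB/c and from 6.12 to 45.02 CPM in B10.D2 (log2 2.31, SE 0.64, edgeR adjusted p = 0.00319), and against B10.D2 alone the difference was 1.57 and no longer called. Grin3a, of NMDA receptors, was lower in rat at 11.1, 13.8, 11.3 and 10.2 CPM against 50.1, 65.3 and 99.3 CPM. In the vesicle release list 1 gene was called higher in rat and 3 higher in mouse of 27, the latter 5 without rat library 2. Rab3c, a small GTPase of vesicles, was at 735, 825 and 999 CPM in mouse and 158, 195, 173 and 120.0 CPM in rat (log2 -2.43, SE 0.11). The vesicle membrane protein gene Syp overlapped at 461, 509.9 and 573 and 495, 649, 555 and 448 CPM.

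Neuropeptides and granins had 7 genes called higher in rat and 4 higher in mouse of 28 tested. Iapp, amylin, was at 21.8, 12.2, 15.1 and 9.95 CPM in rat and had 1 count over the mouse libraries, a ratio of 3011 (exact 95% counting interval 539 to 119109). Pcsk1n, an inhibitor of peptide processing, was lower in rat at 0.822, 1.52, 1.35 and 0.233 CPM against 109, 129 and 154 CPM, but has 2 rat rows. Calca, which encodes CGRP, was at 1713, 1828 and 2195 CPM in mouse and 1159.6, 1295, 1389 and 932 CPM in rat, a difference of -0.68 (SE 0.10) and not called, and Chga overlapped. Galanin and vasoactive intestinal peptide are both known to be induced by axon injury. Gal was at 8.52, 13.4 and 23.7 CPM in mouse and 103, 97.6, 99.0 and 339 CPM in rat, and Vip at 0, 0.112 and 0.411 and 16.6, 11.3, 13.9 and 49.4 CPM, so all rat libraries lay above all mouse ones and library 4 lay far above the other rats. The log2 differences were 3.43 (SE 0.30) for Gal and 6.81 (SE 0.42) for Vip. Without rat library 4 they were 2.77 and 6.11.

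Rat library 4 was high for other genes of the same kind. Of 19 injury-induced genes tested, 8 were called higher in rat and 2 higher in mouse, with a median of 1.27. Without rat library 4 the counts were 5 and 2, with a median of 0.97. Gadd45a, a growth arrest gene, was at 21.02, 23.3 and 30.9 CPM in mouse and 89.1, 87.5, 99.5 and 289 CPM in rat, and its difference of 2.49 became 1.89 without that library, under 4-fold. Adcyap1, which encodes PACAP, was at 92.5, 109.7, 117 and 320.2 CPM in rat and overlapped mouse, at 100.6, 134 and 176 CPM. Crisp3 was at 46.0, 17.7, 20.2 and 51.9 CPM in rat and at most 0.109 CPM in mouse. Immediate early genes gave 1 call in each direction of 17, Fosl1 higher in rat (log2 2.86, SE 0.49) and Dusp5 higher in mouse (log2 -2.10, SE 0.16). Without rat library 4 these were 2.20 and -1.98, and Dusp5 was under 4-fold.

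Glial and vessel markers gave few calls. Of 8 satellite glial markers 0 were called, with a median log2 difference of 1.15. In rank, 5 of the 8 did not overlap and were higher in rat, against 2883 of all 9494 shared genes. The summed level of the satellite glial markers was 3459 to 4357 CPM in mouse and 11903, 10972, 11626 and 16093 CPM in rat. Apoe, at the levels given above, made up most of this sum in every library of both species, so the sum mainly follows that gene. Without rat library 4 the median was 1.02 and 1 was called higher in rat. Of 20 Schwann cell and myelin genes 1 was called, and the median was 0.83. That gene was Pmp2, a fatty acid-binding protein of myelin (chromosome 3, 10179851 to 10183929), at 622, 327, 808 and 318 CPM in rat, 3.25 to 33.0 CPM in BALB/c and 3.88 to 7.76 CPM in B10.D2 (log2 5.87, SE 0.35). It shares 86.9% of its mouse exonic bases with another gene. Cd9 overlapped at 805, 886 and 1079.5 and 1142, 711, 1072 and 772 CPM. Of 14 endothelial and mural markers 0 were called, and Emcn and Notch3 overlapped between species. The list summed to 424 to 806 CPM in mouse and 557 to 768 CPM in rat.

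Immune markers are given by cell type. Of 18 macrophage markers 4 were called higher in rat and 0 higher in mouse, with a median of 1.11. Their sum was 897 to 1111 CPM in mouse and 1046, 836, 878 and 1924 CPM in rat, so only library 4 exceeded the mouse range. Trem2, a lipid receptor of phagocytes, was at 2.73, 3.27 and 5.72 CPM in mouse and 17.3, 6.81, 8.29 and 76.5 CPM in rat. Its difference of 2.84 became 1.5 without library 4, and that of Laptm5 went from 2.16 to 1.85, both under 4-fold. The integrin Itgam and the folate receptor Folr2, which were at 3.10 and 3.25, stayed called at 2.61 and 2.40, and Itgam shares 68.7% of its mouse exonic bases. Without rat library 4, 2 macrophage markers were called and the median was 0.43. Cd4, of helper T cells and, in rats, also of macrophages, was at 1.05, 1.69 and 3.18 CPM in mouse and 58.4, 38.7, 38.4 and 88.5 CPM in rat (log2 4.93, SE 0.18). The B cell genes Ms4a1 and Pax5 were lower in each rat library, at 0.616, 1.39, 0.338 and 0.233 and 0.103, 0.331, 0.169 and 0.466 CPM against 2.36, 3.35 and 7.76 and 1.28, 2.19 and 5.57 CPM. Lymphocyte markers gave 2 calls higher in rat and 3 higher in mouse of 14. Of 14 granulocyte and mast cell markers 6 were called higher in mouse and 0 higher in rat, with a median of -1.58. S100a8, a neutrophil protein gene, was at 8.71, 25.5 and 128 CPM in mouse and 4.11, 3.04, 3.22 and 0.544 CPM in rat, and the mast cell protease gene Cpa3 at 7.27, 11.5 and 17.2 and 1.44, 0.132, 1.35 and 1.79 CPM. Neither overlapped. The haemoglobin gene Hbb-b1, a mark of blood, was at 313, 893 and 1879.8 CPM in mouse and 174, 284, 252 and 175 CPM in rat (log2 -2.20, SE 0.44), the only 1 of 6 erythroid markers called.

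Fat genes gave the highest share of calls of any cell type list. Of 7 adipocyte markers 6 were called higher in mouse, with a median of -3.37, and their sum was 68.3 to 346 CPM in mouse and 29.5, 12.4, 13.3 and 47.9 CPM in rat. Thrsp, of lipid synthesis, was at 33.1, 40.9 and 57.5 CPM in mouse and 0.205, 0, 0.254 and 0 CPM in rat. The fatty acid-binding protein gene Fabp4 was at 4.83, 28.8 and 58.8 and 0.719, 1.26, 1.02 and 6.61 CPM, and rat library 4 overlapped the mouse range. Without that library Fabp4 differed by -4.60 in place of -3.37, 7 were called and the median was -4.60. Skeletal muscle markers were not called in any of 12 genes. They summed to 39.7 to 1968 CPM in mouse, with a median over libraries of 68.0 CPM, and to 563, 243, 230 and 242 CPM in rat. Mylpf, a muscle myosin light chain gene, reached 104 CPM in BALB/c library 50 and at most 7.82 CPM in the other mouse libraries, against 34.0, 9.06, 2.96 and 3.58 CPM in rat. Of 7 spinal cord and oligodendrocyte markers tested, 3 were called higher in rat and 1, Mal2, higher in mouse. The sum of the 10 shared members went the other way, at 341 to 431 CPM in mouse and 85.7, 86.8, 76.4 and 75.03 CPM in rat. Another 11 of the 21 listed genes were at 0 in all rat sham libraries and are outside this sum. The share of these tissues in any difference was not tested.

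**Figure D5:**
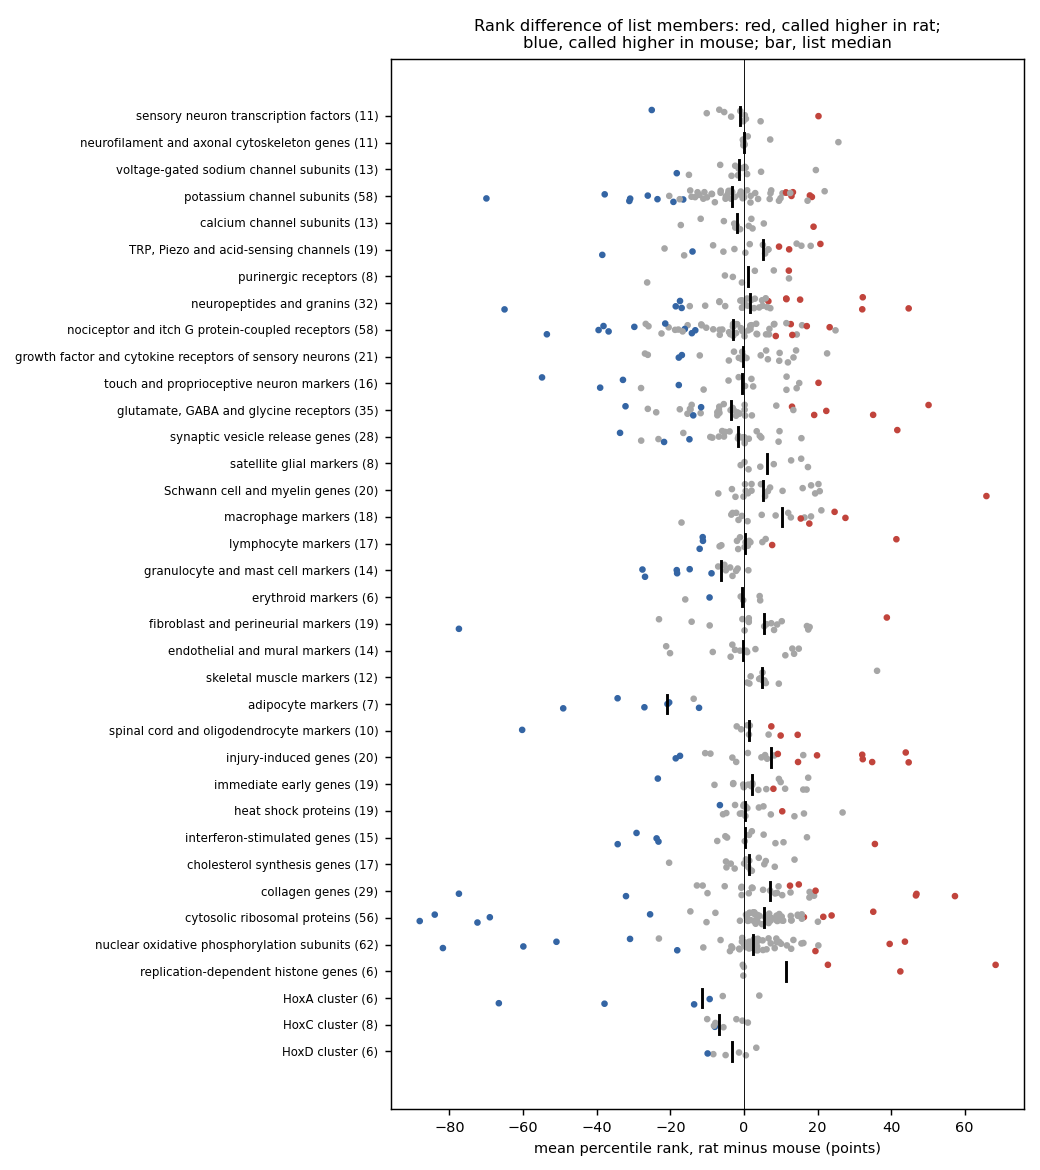
Difference of mean percentile rank, rat minus mouse, in points, for each shared member of the lists with 6 or more members, small non-coding RNAs apart, with the number of members in parentheses. Red and blue points are genes called higher in rat and in mouse, grey points are not called or not tested, and the bar is the list median. Adipocyte markers lie to the left, with a median of -20.8 points, and macrophage markers to the right, with a median of 10.3 points.

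Matrix genes were higher in rat in several cases. Of 29 collagen genes 6 were called higher in rat and 2 higher in mouse, the latter 1 without rat library 2, with a median of 1.04. Col6a6, of type VI collagen, was at 221, 109.8, 195 and 276 CPM in rat, 14.9 to 20.4 CPM in BALB/c and 1.40 to 3.13 CPM in B10.D2, 3 ranges that did not overlap (log2 5.03, SE 0.17). The basement membrane chain Col4a4 was at 4.22, 6.51 and 8.99 CPM in mouse and 137, 84.3, 91.6 and 91.5 CPM in rat (log2 3.83, SE 0.11) and Col9a3 at 2.97, 3.92 and 4.97 and 82.1, 66.2, 94.3 and 92.9 CPM (log2 4.32, SE 0.08). Col12a1 overlapped. Of 19 fibroblast and perineurial markers 1 was called higher in rat, the matrix glycoprotein gene Thbs4 at 24.5, 36.8 and 43.2 CPM in mouse and 383, 108, 209 and 397 CPM in rat, and 1, Col1a2, higher in mouse. Without rat library 2 or 3 there were 3 called higher in rat, and without rat library 4 there were 2 called higher in mouse.

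Some gene classes bear on RNA selection, because ribosomal RNA depletion keeps transcripts without a poly(A) tail and poly(A) selection does not. Replication-dependent histone transcripts lack the tail. Of 6 such genes 3 were called, all higher in rat, and 0 higher in mouse. Hist2h4 was at 14.8, 21.4 and 31.4 CPM in mouse and 213, 110.3, 144 and 225 CPM in rat (log2 2.91, SE 0.14), and Hist2h3c2 at 1.83, 2.02 and 2.86 and 27.5, 17.2, 19.5 and 31.2 CPM (log2 3.41, SE 0.13). Hist2h2be overlapped at 8.67, 10.98 and 12.7 and 13.1, 9.65, 9.39 and 11.97 CPM. These genes belong to families with near-identical copies, so reads could be lost or split, and Hist1h2ao has 9 rat rows. Of 64 small non-coding RNA genes 15 were called higher in rat and 2 higher in mouse, the latter 4 without rat library 3 and 1 without rat library 4, and 11 of the calls were genes whose mouse exonic bases are mostly shared. Terc, the telomerase RNA, was at 0.545, 0.710 and 1.55 CPM in mouse and 28.04, 11.3, 13.6 and 13.3 CPM in rat (log2 4.11, SE 0.27). The host-borne microRNA gene Mir675 was at 0 in mouse and 30.8, 8.20, 21.2 and 40.0 CPM in rat, at least 145-fold higher, with 100% of its bases inside another gene. Snhg11, the only long non-coding RNA of its list in the shared set, was at 940.1, 1287 and 1654 CPM in mouse and 207, 191, 200.1 and 153 CPM in rat (log2 -2.79, SE 0.13).

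Ribosomal protein genes took 1.10% ± 0.0636 (SD, n = 11) of shared counts in mouse and 1.79% ± 0.381 (SD, n = 4) in rat (exact permutation test, p = 0.000733, the smallest it can give, adjusted p = 0.00183), and the species did not overlap. Of 56 such genes 4 were called higher in rat and 5 higher in mouse, with a median of 0.51. The called ones higher in mouse include Rpl7a and Rps6 above, and Rpl8 and Rps19, which have 2 rat rows each. Nuclear oxidative phosphorylation genes gave 3 calls higher in rat and 5 higher in mouse of 60, with a median of 0.22. Atp5g2 was at 21.9, 23.4 and 25.9 CPM in mouse and 205, 159.9, 197 and 170.2 CPM in rat (log2 2.90, SE 0.06), while Atp5b overlapped. Of 17 cholesterol synthesis genes 0 were called, and Hmgcs1, of the pathway's entry, overlapped at 1446, 1638 and 1762 and 1789, 1926, 2079 and 1440.4 CPM.

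Hox genes record position along the body axis, and the ganglia came from different lumbar levels. In the HoxA cluster 4 of 6 genes tested were called, all higher in mouse, with a median of -2.42. Hoxa7 was at 34.7, 41.2 and 45.9 CPM in mouse and 1.13, 1.06, 1.27 and 0.855 CPM in rat (log2 -5.30, SE 0.11). Hoxa3 and Hoxa6 were lower in every rat library, at -2.56 (SE 0.17) and -2.29 (SE 0.15). Hoxa9 was at 84.3, 88.7 and 90.1 CPM in mouse with 4 counts over the rat libraries, but has 2 rat rows. The HoxC and HoxD clusters gave 1 call each, both higher in mouse, of 7 and 6 genes. Those genes, Hoxc11 and Hoxd11, overlapped between species, with mouse ranges of 0 to 7.22 and 0.164 to 14.3 CPM. The call of Hoxc11 was lost without any one rat library, BALB/c library 71 or B10.D2 library 88, and that of Hoxd11 without rat library 1, 3 or 4. Against male mice alone neither cluster had a call. Hoxd9 and Hoxd4 also overlapped, with differences of -0.18 (SE 0.15) and 0.03 (SE 0.10). Ganglion level and species cannot be told apart here.

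Y-linked genes checked the labelled sexes of the mice. Kdm5d was at 75.4 to 90.9 CPM in 6 males, 0.103 to 0.466 CPM in 5 females and 108, 90.4, 105 and 100.3 CPM in the male rats. Eif2s3y was at 16.2 to 110 CPM in male mice, with 16.2 CPM in BALB/c library 71, at most 0.703 CPM in females and 298, 194, 216 and 206 CPM in rat. Its call as higher in rat rests on a mean over both mouse sexes and was lost against male mice alone, and also without any one rat library or any one of 7 mouse libraries.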

How the data were processed

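As the methods of the study describe, strand-specific libraries gave 100-base paired reads, which the authors aligned with STAR to mm10 (mouse, gene models of GRCm38) or rn6 (rat, Rnor_6.0) before counting pairs with HTSeq. The deposited tables hold raw counts per gene. Groups came from the labels. Rat libraries are numbered in the order of their group. No column lacked a sample, and the deposited tables of injury comparisons were not used. Only annotated genes were paired, and assembled LncRNAs were left out.

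For symbols with several rows (78 genes), the row with the highest total count was kept. Counts were fitted with edgeR 4.0.16 in R 4.3.3 (TMM factors over the shared set, filterByExpr, quasi-likelihood F test), with both strains weighted equally against rat and Benjamini-Hochberg adjustment over all genes tested. All tests were two-sided. A gene was called at an adjusted p under 0.05 and at least 4-fold. The standard error is the log2 difference over the square root of F. The injured libraries had a fit of their own. Composition was tested by exact permutation over libraries. Mouse positions and exon overlap came from GENCODE M21 on mm10, which matched 9493 of 9494 genes. No rat annotation was used, so no rat positions are given. In simulated counts with 200 changed genes, 99% of 4-fold and 100% of 8-fold changes reached an adjusted p under 0.05 in the right direction. This was for the sham fit over 8666 genes, where 14 unchanged genes also reached that threshold. No fold limit was applied and all genes had the same spread setting, so the simulation does not measure recovery by the rule for called genes.

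Named genes are the 12 in each direction with the largest difference of mean rank among called genes that had 1 row per symbol, at least 10 CPM in the higher species and no overlap of ranks. They are joined by the 10 of highest rank per species and, per list, up to 4 called members with the largest and up to 2 members at 10 CPM or more in both species with the smallest rank difference. For the Hox, sex-linked and cell type lists, defining members could be named whatever their values. Genes outside the shared set, such as Nefl, Tubb3 and Piezo2, were named after their values were seen. Some genes that the rule names are not reported here. The members and gene lists were chosen with earlier results of these data known. Alternatives were DESeq2 1.42.0, limma 3.58.1 on rank scores (0.5 added to CPM for its fold), other scalings, filters, shared sets and thresholds, mouse subsets, and leaving out each library.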

Additional observations from a re-analysis of the deposited data

Results flagged for a closer look

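In 12 of 132 groups of 4 to 6 libraries, 1 library lay far from the others by Dixon's test. The usual rate of about 1 in 20 groups assumes separate groups without ties. The same libraries recur here and some values tie at 0, so that rate gives no expected number. The 10 highest genes held 6.91% of shared counts in BALB/c library 71 against 6.69% to 6.76% in the other BALB/c libraries. In rat library 1 they held 6.22%, against 7.16% to 7.30%. Apoe was at 14049 CPM in rat library 4 and 8645 to 9498 CPM in the other rat libraries. Rat library 1 stood apart for Prph at 4398 CPM, Tpi1 at 5.65 CPM and Atp5f1 at 1.13 CPM. In B10.D2, Selenow was at 284 CPM in library 58 and Chek1 at 7.31 CPM in library 60. The other far libraries had 1 or a few counts beside libraries at 0, where any count lies far by this test. These were Adh4 at 0.257 CPM in B10.D2 library 77, Ifi27l2b at 0.0454 CPM in B10.D2 library 88, Sptlc3 at 0.106 CPM in BALB/c library 56 and Chid1 at 0.0661 CPM in rat library 2. Each of these gene differences between species kept its direction when that library was left out.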

How the results depend on the processing

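The count of genes called between species in sham ganglia, 1217 (567 higher in rat and 650 higher in mouse), was 1211 with no normalization factor (588 and 623), 1219 with upper quartile factors (617 and 602), 1437 with DESeq2 (751 and 686), 879 with limma on rank scores and 1527 with no filter (831 and 696). The share of calls higher in rat, 46.6%, was thus 50.6%, 52.3% and 54.4% with upper quartile factors, DESeq2 and no filter, so which species had more calls depended on these choices. All of these settings used a shared set that needs a rat count but no mouse count. With at least 1 count in both species, 549 were called higher in rat and 650 higher in mouse. The count of called genes was 1238 with male mice alone, 1194 with BALB/c alone, 1212 with B10.D2 alone, and 1199 to 1282 with each library left out. With at least 10 counts in every library it was 579, 280 higher in rat and 299 higher in mouse, from fewer genes tested. At 2-fold it was 3131 (1542 and 1589) and with no fold limit 7086 (3546 and 3540). These alternatives, and the adjustment of the composition measures without the share of the library, were chosen after seeing the data: genes at 10 CPM or more in both species gave 252 calls (109 and 143), leaving out genes with several rows or mostly shared exons gave 1109, and between the strains 2.73% of genes were called at 2-fold and 12.6% with no fold limit. Calls in injured ganglia were 1457 to 1630 with each library left out. No named gene that was called between species in sham ganglia changed sign under the alternatives run for it. Scaling moved the median of all genes by at most 0.0984 on the log2 scale.

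The species difference in the share of the 100 highest genes was 0.480 to 1.16 percentage points with each library left out, and 0.646 (exact permutation test, adjusted p = 0.206) with male mice alone. That of the 10 highest was 0.125 to 0.485. The median rank correlation between species was 0.798 for genes at 10 CPM or more in both. List medians with each library left out ranged from -0.16 to 0.10 for the axonal cytoskeleton, -0.50 to -0.36 for G protein-coupled receptors, 1.02 to 1.22 for satellite glia, -4.60 to -3.07 for adipocytes and -0.18 to 0.20 for small non-coding RNAs, whose median was 0.49 with DESeq2. The spinal cord list had 1.52 with DESeq2, which tested more of both lists. Etv1, Gadd45a, Laptm5, Trem2, Dusp5, Kcnq3, Hspb6, B2m, Chrna3, Ifit2, Eif2s3y, Hoxc11 and Hoxd11 each lost their call under at least 1 alternative, and the cause was not tested beyond the values given above.

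No paired analysis was possible because the mouse and rat libraries share no replicate numbers. The 4 rat libraries limit the precision of every difference, and 3 counts are up to 0.308 CPM in rat and 0.173 CPM in mouse. The share of mitochondrial messenger RNAs was not compared, since no such gene is in the shared set.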

Other observations

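Interferon-stimulated genes were called in both directions, 1 higher in rat and 4 higher in mouse of 15 tested, with a median log2 difference of -0.0037 against 0.01 over all genes. Ifi44 was at 5.35, 7.91 and 11.8 CPM in mouse (lowest, median and highest of 11) and 87.9, 52.9, 59.7 and 68.7 CPM in rat libraries 1 to 4. The RNA sensor gene Ddx58, which encodes RIG-I, was at 56.8, 74.9 and 86.4 and 10.7, 12.1, 10.8 and 12.1 CPM, and Ifit3 at 10.5, 31.2 and 54.7 and 2.67, 1.92, 2.37 and 4.12 CPM. These genes did not overlap between species, with log2 differences of 2.97 (SE 0.17), -2.72 (SE 0.10) and -3.32 (SE 0.35). Ifit2 was lower in each rat library too, at -2.13 (SE 0.12), and at -1.89 against BALB/c alone was no longer called. Stat2, which carries the interferon signal, overlapped at 96.7, 125 and 153 and 125, 129, 117 and 133 CPM.

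B2m, the light chain of MHC class I, was at 152, 208 and 321 CPM in mouse and 1280.0, 894, 961 and 1052 CPM in rat, higher in every rat library (log2 2.28, SE 0.10, edgeR adjusted p = 1.78e-12), and at 1.98 against B10.D2 alone it was under 4-fold. Of 18 heat shock protein genes 1 was called in each direction, with 0 higher in rat without rat library 1 and 2 without rat library 3 or 4. The chaperone gene Hsp90aa1 was at 2344, 2749.8 and 2898 CPM in mouse and 445, 315, 299 and 251 CPM in rat (log2 -3.12, SE 0.13), while its paralog Hsp90ab1 was higher in rat, at 2124, 2749 and 3114 and 4071, 5267, 4473 and 4731 CPM (log2 0.78, SE 0.08, not called). The constitutive chaperone gene Hspa8 overlapped at 2694, 3044 and 4902 and 3496, 4038, 3599 and 3682 CPM. The ganglion-expressed receptor Gfra4, of the GDNF family, was at 11.99, 14.4 and 17.6 CPM in mouse and 1.95, 1.39, 2.54 and 1.87 CPM in rat (log2 -3.00, SE 0.14).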
